A study of Mus musculus with 16 samples.

Results

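CLIP peaks of CTCF that lay within the first 500 bp of a transcript were studied in female mouse embryonic stem (ES) cells, which come from the early embryo and can form all its tissues. A start peak was a CLIP peak whose midpoint lay 0 to 500 bp downstream of the 5′ end, on the same strand, of a row of at least 1000 bp in the nuclear RNA-seq list of the same day. Peaks were thus chosen by their own position and by the row starts. Their number and place are a description, while RNA level, ChIP peaks and repeat in other libraries were not used to choose them. The rule found 1274 and 2040 start peaks at day 3 and 1308 and 2468 at day 0, together 7090 of 599274 listed peaks. Peaks deeper in rows of the same kind numbered 87732 and 134645 at day 3 and 92803 and 173727 at day 0.

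The zinc-finger protein CTCF sits on DNA where chromatin loops and domains end, often near gene starts, and it also contacts RNA. In CLIP, UV light fixes a protein to the RNA it touches, and the RNA recovered with the protein is sequenced. The start of a nuclear transcript is made first and carries the cap, which marks the RNA for processing and export. A peak on the sense strand there is a place on the RNA, while a ChIP peak is a place on the DNA.

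Day 3 cells had grown for 3 days without LIF, the factor that keeps ES cells undifferentiated, in non-adherent culture. Day 0 cells were undifferentiated, adherent and grown with LIF. All CLIP and RNA-seq cells carried the strain label CAST/Ei x 129/Sv/Jae, and the 4 CLIP libraries (2 per day) were made with UV and anti-FLAG beads from nuclear lysates. Nuclear RNA-seq had 1 library per day, depleted of ribosomal RNA and made with strand kept. CTCF ChIP had 1 library at day 3 and 2 at day 0, with an antibody to CTCF itself and the strain label 129S1/CastEiJ x 129S1, so the assays were not shown to share a cell line. No background level is given, since the libraries made without UV and the inputs were not analysed here. The rows carry no gene names, so ES cell markers were not checked and windows are given by their position on build mm9.

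The row starts were those of assembled transcripts and not of mapped caps. No row start lay inside another row of its strand, and no peak lay in more than 1 row. Of the 15767 rows at day 3, 58.4% began within 100 bp of a row start of day 0, and of the 18100 rows at day 0, 52.1% began within 100 bp of one of day 3. Among rows that held a start peak (host rows) these shares were 60.7% and 61.4% at day 3 and 58.0% and 59.8% at day 0. Host rows more often began within 1000 bp past the end of another row of their strand. That share was 14.2% and 11.5% at day 3 and 20.6% and 18.5% at day 0, against 5.69%, 5.53%, 7.33% and 7.44% of rows with deeper peaks alone. The label "transcript start" therefore holds for the rows as listed, and whether such starts are breaks within a longer RNA was not tested.

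Start peaks made up a small and steady share of the lists. They were 1.43% and 1.49% of the peaks in rows at day 3 and 1.39% and 1.40% at day 0. Of all rows, 5.98% and 10.3% of rows at day 3 and 5.08% and 9.12% at day 0 were host rows. Most host rows held 1 start peak, namely 75.3% and 80.3% of them at day 3 and 71.7% and 67.8% at day 0, and no row held more than 8. The 10 rows with most start peaks gave 2.51% to 4.66% of the start peaks of a library. Start peaks were about as wide as deeper ones, with medians of 43 and 36 bp at day 3 and 45 and 35 bp at day 0, against 47, 36, 46 and 37 bp. By the authors' own score, ranked within each list, their median stood at percentiles 48.7 and 51.2 at day 3 and 53.2 in both day 0 libraries.

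Within the first 500 bp, peaks were sparsest next to the start itself. Peaks were placed by midpoint and had median widths of 35 to 45 bp, so a peak wholly inside a row cannot be placed at its first bases. How far this lowers the density there was not tested. The first 50 bp held 0.0901 and 0.140 peaks per kb of row at day 3 and 0.102 and 0.180 at day 0. From 100 to 200 bp the density was 0.185 and 0.285 at day 3 and 0.151 and 0.315 at day 0. It was higher again from 1000 to 2000 bp, at 0.206 and 0.333 at day 3 and 0.199 and 0.363 at day 0, and lower beyond 20000 bp, at 0.117, 0.172, 0.115 and 0.213. Over the whole first 500 bp the densities were 0.162 and 0.259 at day 3 and 0.145 and 0.273 at day 0, against 0.135, 0.208, 0.135 and 0.253 in the deeper sequence. Among rows of like length the order was mostly the other way. The first 500 bp were denser than the deeper sequence in 3 of 20 combinations of library and row length (1 to 2, 2 to 5, 5 to 20, 20 to 100 and over 100 kb). The lists differ in size, so densities are compared within a library.

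**Figure D1:**
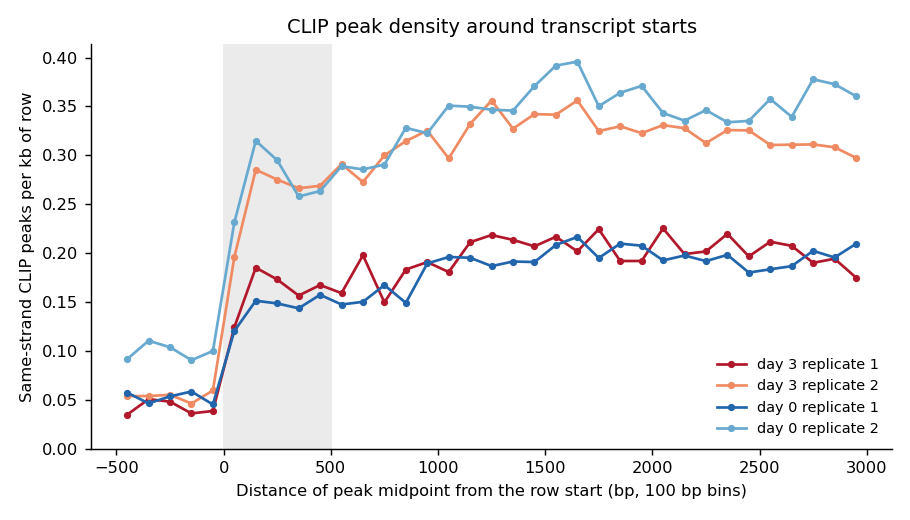
Same-strand CLIP peaks per kb of row (vertical axis) by distance of the peak midpoint from the row start in 100 bp bins (horizontal axis, negative upstream), with 1 line per library; the grey band marks the first 500 bp. In all 4 libraries the first 100 bp are lower than the 100 bp after them, and density is higher again at 1000 to 2000 bp.

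Peaks just outside the window were repeated at a somewhat higher share than those just inside it. The last 50 bp inside it held 124, 231, 139 and 245 peaks in the 2 day 3 and 2 day 0 libraries, and the first 50 bp outside it held 129, 226, 138 and 279. Of the peaks inside, 19.4%, 12.1%, 24.5% and 13.9% were repeated in the other library of the day, and of those outside 25.6%, 16.8%, 33.3% and 17.9%.

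Start peaks were found again in the other library of the same day more often than deeper peaks were. A peak counted as repeated when a peak of the other library overlapped it by at least 1 bp on its strand. At day 3, 21.8% of the start peaks of replicate 1 were repeated (exact Clopper-Pearson 95% interval 19.6 to 24.2), against 12.7% of deeper peaks. In day 3 replicate 2 the shares were 13.9% of start peaks and 8.15% of deeper peaks. At day 0 they were 31.5% (29.0 to 34.1) of start peaks and 18.9% of deeper peaks in replicate 1, and 17.3% and 10.4% in replicate 2. All 4 libraries moved the same way, by 8.58 ± 3.00 percentage points (SD, n = 4; two-sided exact sign-flip permutation p = 0.13, the smallest that 4 libraries allow, so 0.05 could not be reached). The 2 libraries of a day share the same overlaps, so they do not give 2 separate values, and these intervals cover counting error only.

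This lead was not seen against deeper peaks of the same rows. Start peaks minus the deeper peaks of host rows gave -1.68 ± 1.61 percentage points (SD, n = 4; higher in 1 of 4 libraries, two-sided exact sign-flip permutation p = 0.25). There the shares were 21.8% of start peaks and 24.4% of deeper peaks in day 3 replicate 1, and 13.9% and 13.6% in day 3 replicate 2. They were 31.5% and 34.8% in day 0 replicate 1, and 17.3% and 18.3% in day 0 replicate 2. Host rows that also held a deeper peak numbered 751 and 1399 at day 3 and 705 and 1408 at day 0. With each of these rows weighted equally the difference was 0.299 points (2 of 4 libraries higher, two-sided exact sign-flip permutation p = 0.75). Among rows of like length it was 1.68 points, and start peaks were repeated more often in 14 of the 20 combinations of library and length. These alternatives were chosen after values were seen.

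**Figure D2:**
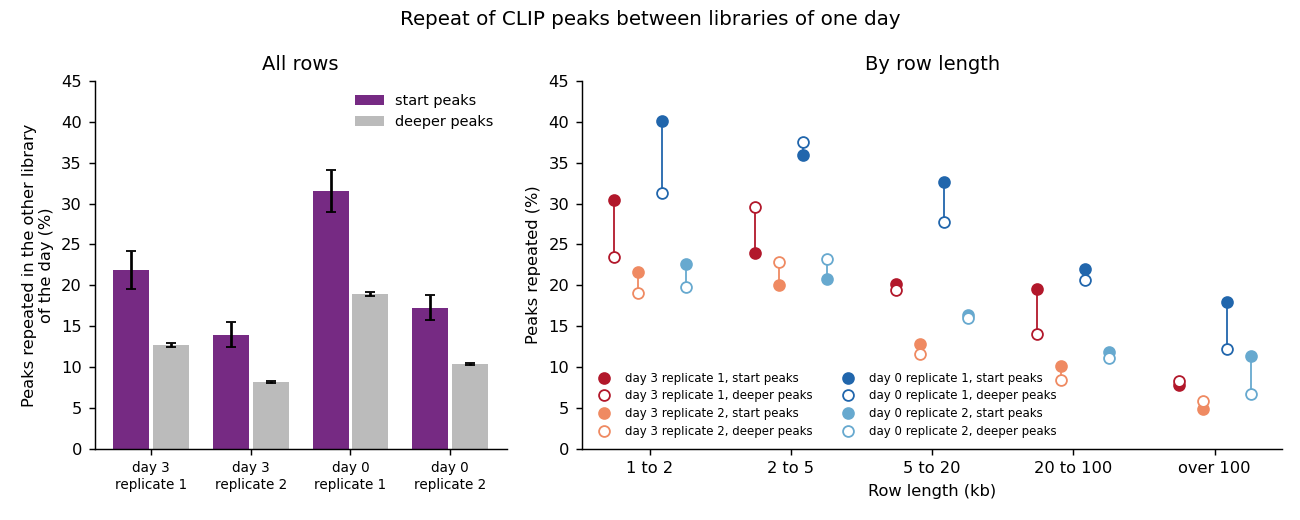
Share of CLIP peaks repeated in the other library of the day, in percent (vertical axes); left, start peaks (purple) beside deeper peaks (grey) per library with exact 95% intervals; right, the same by row length, filled points for start peaks and open points for deeper peaks. Start peaks are higher in every library on the left (21.8% against 12.7% in day 3 replicate 1), while on the right both shares are lower in the longest rows and start peaks are lower in all 4 libraries for rows of 2 to 5 kb.

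Repeats across days were like those within a day. For the 8 ordered pairs of libraries from different days, 13.2% to 27.6% of start peaks were repeated, against 8.60% to 17.5% of deeper peaks. The ratio of the shares ran from 1.49 to 1.86 across days and from 1.66 to 1.72 within a day. Start peaks overlapped by a peak in each of the other 3 libraries numbered 81 and 98 at day 3 and 93 and 87 at day 0, or 6.36%, 4.80%, 7.11% and 3.53%. Of deeper peaks 2.72%, 1.78%, 2.65% and 1.46% were. Even so, 59.1% and 68.2% of start peaks at day 3 and 55.2% and 63.8% at day 0 were met by no peak of any other library.

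Rows with start peaks stood high in nuclear RNA. Their median level was 13.4 and 12.1 FPKM at day 3 and 10.2 and 10.5 FPKM at day 0 (fragments per kilobase of transcript, scaled to library size, so a level per length). Rows with deeper peaks alone had medians of 9.16 and 8.26 FPKM at day 3 and 8.04 and 7.25 FPKM at day 0, and rows with no CLIP peak 3.11, 2.87, 3.13 and 2.86 FPKM. The log2 ratio of medians, host rows over rows with deeper peaks alone, was 0.50 ± 0.10 (SD, n = 4; higher in 4 of 4 libraries, two-sided exact sign-flip permutation p = 0.13). Libraries of a day share 1 RNA-seq list, and many rows pool transcripts under 1 value. Among rows of 1 transcript the log2 ratio was 1.28. In these bulk samples fewer cells of a type and less RNA per cell cannot be told apart.

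Rows were put into 4 classes of about equal size by FPKM, and the share with a start peak was higher in each higher class. In the lowest class it was 1.57% and 3.43% at day 3 and 1.39% and 2.06% at day 0. In the highest class it was 11.7% and 18.4% at day 3 and 9.57% and 17.8% at day 0. Repeat also differed by class. Start peaks of the highest class were repeated in 30.9% and 22.0% of cases at day 3 and 44.5% and 24.1% at day 0. In the lowest class 4.29% and 1.94% were at day 3 and 7.35% and 3.60% at day 0. Within classes start peaks were repeated more often than deeper peaks in 15 of 16 combinations of library and class, and the mean difference was 5.88 percentage points.

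**Figure D3:**
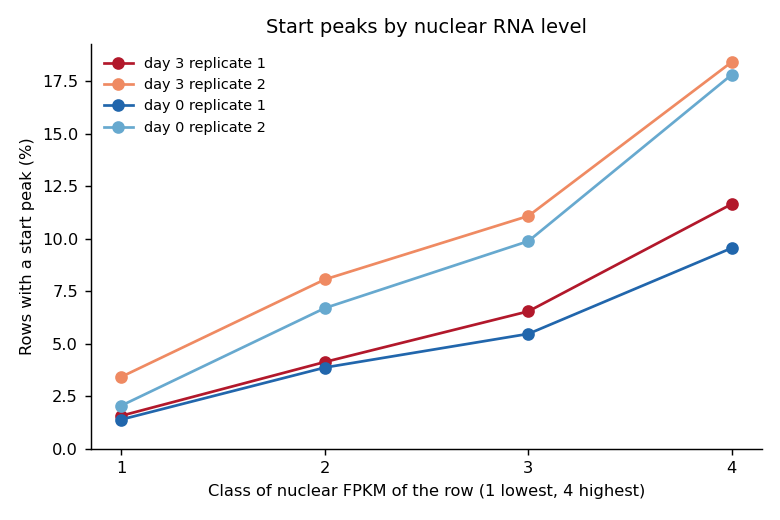
Percent of rows with a start peak (vertical axis) by class of nuclear FPKM of the row (horizontal axis, 1 lowest to 4 highest, about equal numbers of rows), with 1 line per library. Every line climbs from class to class, and in day 3 replicate 2 it runs between 3.43% and 18.4%.

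Host rows were shorter than rows with deeper peaks alone and longer than rows with no CLIP peak. Their median length was 10617 and 14311 bp at day 3 and 9293 and 10289 bp at day 0. Rows with deeper peaks alone had 31027, 28275.5, 30356 and 28492 bp, and rows with no CLIP peak 5124, 4072.5, 3725 and 2951.5 bp. A deeper peak can fall anywhere past the first 500 bp, so long rows enter the deeper group more easily by its definition. Rows of 1 transcript made up 32.2% and 28.3% of host rows at day 3 and 37.4% and 35.9% at day 0. Of rows with deeper peaks alone they made up 18.2%, 21.8%, 15.0% and 17.5%. Of all rows they made up 42.3% at day 3 and 44.7% at day 0, more than of host rows. Row length moved with repeat and with FPKM. Averaged within classes of row length, the log2 ratio of median FPKM was 0.52, with host rows above rows with deeper peaks alone in 4 of 4 libraries. The part of row length in these differences was not tested beyond the values by length. Of host rows, 79.6% and 86.5% at day 3 and 76.7% and 85.3% at day 0 also held a deeper peak in the same library.

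CTCF ChIP peaks on the DNA did not set the starts of host rows apart from those of rows with deeper peaks alone. A ChIP peak of the same day lay within 500 bp of the start in 16.97% and 17.6% of host rows at day 3 and in 28.0% and 32.0% at day 0. For rows with deeper peaks alone these shares were 17.1% and 17.2% at day 3 and 30.2% and 29.5% at day 0, and for rows with no CLIP peak 16.4%, 15.9%, 26.9% and 26.5%. In each library host rows and rows with deeper peaks alone were both above rows with no CLIP peak. The difference between host rows and rows with deeper peaks alone was 0.10 ± 1.92 percentage points (SD, n = 4, higher in 2 of 4 libraries, two-sided exact sign-flip permutation p = 0.75), which is less than the spread between libraries. Its sign turned under 10 of 22 alternatives, between -1.08 and 1.16 points. The alternative with rows whose start lay outside every other row left out no row, so it could not turn the sign. Day 0 used a peak of either ChIP library and day 3 its single one, so the levels of the days are not compared.

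**Figure D4:**
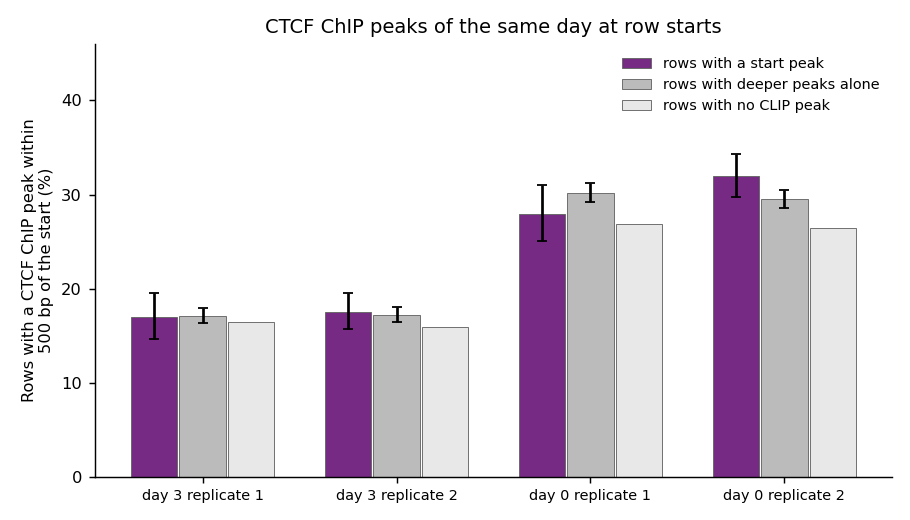
Percent of rows with a CTCF ChIP peak of the same day within 500 bp of the start (vertical axis) for each CLIP library, for rows with a start peak (purple), rows with deeper peaks alone (grey) and rows with no CLIP peak (light); whiskers on the first 2 are exact 95% intervals. The intervals of the first 2 bars overlap in every library, as at 16.97% and 17.1% in day 3 replicate 1.

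Start peaks lay over ChIP peaks at about the rate at which ChIP peaks cover starts. Of the start peaks, 12.1% and 12.7% at day 3 and 24.1% and 24.8% at day 0 overlapped a ChIP peak of the day. ChIP peaks covered 12.8% of the bases of all start windows at day 3 and 22.3% at day 0. Deeper peaks did so in 4.70% and 4.78% of cases at day 3 and 14.0% and 13.6% at day 0, where ChIP peaks covered 4.22% and 9.49% of the deeper bases of all rows. Over the 4 lists, 1340 start peaks overlapped a ChIP peak. ChIP peaks were about 2 kb wide (median widths 2005 bp at day 3 and 1964 and 2013 bp at day 0), so an overlap does not place the protein within the 500 bp.

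To compare days, the first 500 bp of the rows of both days were merged into 21665 start windows. In these windows, and in the lists drawn from them, any peak with its midpoint in the window was counted as a start peak. This held also where only the other day listed the row start. Of the windows, 4296 held a start peak in at least 1 library. All 4 libraries had one in 196 windows, and a single library had one in 2818 windows (65.6%). Start peaks in both day 3 libraries and neither day 0 library were found in 124 windows (2.89%), against 2.11% of all features with a peak, windows and remainders of rows together. The reverse held in 154 windows (3.58%), against 2.51% of all features. Pairs of libraries of different days alone gave counts of the same order. Both replicate 2 libraries alone shared 315 windows, both replicate 1 libraries 44, and the crossed pairs 143 and 103. The replicate 2 lists were the longer ones at both days.

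No start window passed a test between days. limma on log2 of scaled peak bases called 0 of 12382 features (0%), of which 1478 were start windows, and the smallest Benjamini-Hochberg adjusted p was 0.218. Without adjustment 1078 features (8.71%) had a p under 0.05, among them 275 start windows (18.6%). A feature entered the test with peaks in at least 2 libraries, so a window with peaks in both libraries of 1 day and no other entered through that day, and this share is no sign of a difference. The other 2818 start windows, with a peak in 1 library, did not enter this main test. In an alternative without that filter, all 4296 start windows with a peak were tested, and 0 of 17228 features were called. Read depth is unknown, so a window without a peak is listed at 0 and is not shown to lack contact.

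The 12 windows with most peak bases among those with start peaks in all 4 libraries were named by position. Values below are bases of peaks whose midpoint lay in the window, not scaled to list size unless stated, and whole peaks are counted. Window 1, chr19:5802172-5802671 on the minus strand, had 485 and 526 peak bases at day 3 and 404 and 374 at day 0. Its row was at 366 FPKM at day 3 and 785 FPKM at day 0, and its deeper sequence was also dense, with 786 and 819 peak bases per kb at day 3 and 778 and 844 at day 0. Both unscaled day 3 values were above both day 0 values. Scaled to list size, window 1 had 102.9 and 77.3 at day 3 and 82.2 and 45.05 at day 0, so the days overlapped. The limma difference for window 1, taken on scaled values, was 0.54 ± 0.61 (SE, log2, adjusted p = 0.953). Window 4, chr19:5844979-5845478, lay upstream of it on the same strand and had 301 and 220 peak bases at day 3 and 329 and 266 at day 0. Its row was at 22.5 FPKM at day 3 and 29.2 FPKM at day 0, and the days overlapped.

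Window 2, chr17:39979939-39980438 on the plus strand, had 234 and 360 peak bases at day 3 and 258 and 502 at day 0. Its row, of 1 transcript at each day, stood at 7595 FPKM at day 3 and 4562 FPKM at day 0. Replicate 2 was the higher library at both days. Windows 3 and 5 lay near each other on chromosome 12, plus strand. Window 3, chr12:110962020-110962991, merged the starts of both days and had 296 and 246 peak bases at day 3 and 327 and 404 at day 0, and window 5, chr12:110932705-110933204, had 396 and 115 at day 3 and 248 and 337 at day 0. Both unscaled day 0 values of window 3 were above both day 3 values. Scaled to list size, window 3 had 62.8 and 36.2 at day 3 and 66.5 and 48.7 at day 0, so the days overlapped. The limma difference for window 3, taken on scaled values, was -0.25 ± 0.60 (SE, log2, adjusted p = 1.00). The spread of window 5 within day 3 was as wide as any difference between days. Its deeper sequence held 70.3 and 54.0 peak bases per kb at day 3 and 101 and 92.0 at day 0, against 792, 230, 496 and 674 per kb in the window.

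Window 7, chr9:78215485-78215984 on the minus strand, carried its peaks near the start alone. It had 167 and 266 peak bases at day 3 and 298 and 248 at day 0, and no peak in any library lay in the deeper sequence of its 1126 bp row, which was at 92.7 FPKM at day 3 and 192 FPKM at day 0. Window 9, chr1:24622530-24623030 on the minus strand, had 280 and 194 at day 3 and 284 and 140 at day 0, in a row at 926 FPKM at day 3 and 920 FPKM at day 0. The days overlapped in both windows 7 and 9. Window 11, chr19:4794162-4794661 on the minus strand, had 106 and 154 peak bases at day 3 and 318 and 270 at day 0. The days did not overlap there, and the limma difference of -0.99 ± 0.61 (SE, log2) did not pass (adjusted p = 0.853). At day 0 a longer row covered this window, so the row start was that of day 3.

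The window was denser in peak bases than the deeper sequence for 12 and 11 of the 12 at day 3 and for 12 and 11 at day 0, a description, since they were selected on these bases. Of these 12 windows, 7 held a row start at both days. None had a ChIP peak of day 3 or of day 0 replicate 1 within 500 bp, while 6 had one of day 0 replicate 2, the longest ChIP list. Adjusted p-values in limma ran from 0.853 to 1.00.

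**Figure D5:**
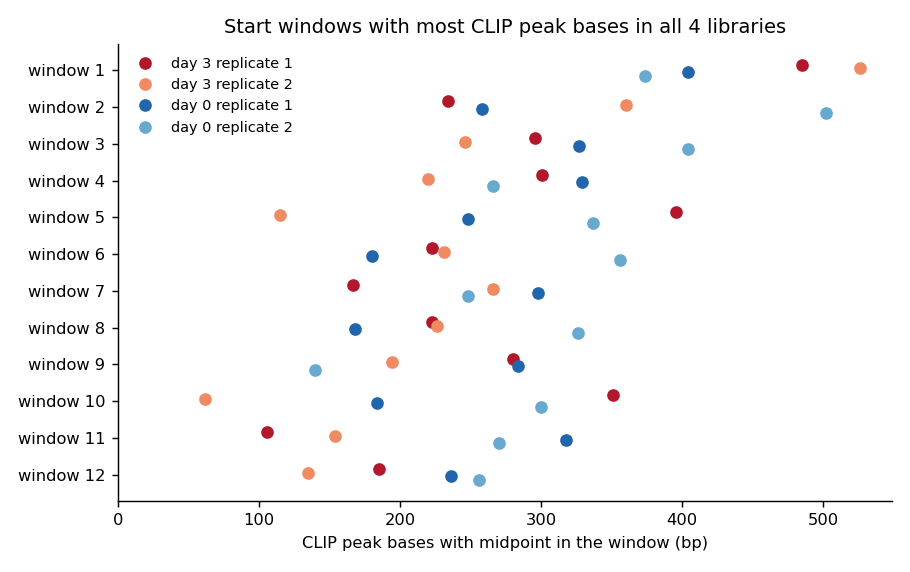
Bases of CLIP peaks (horizontal axis, bp) with midpoint in each of the 12 start windows that had most of them among windows with start peaks in all 4 libraries (rows), with 1 point per library. Window 1 runs between 374 and 526 bp, the days overlap in windows 2, 4 and 5, and window 11 is lower in both day 3 libraries (106 and 154 bp) than in both day 0 libraries (318 and 270 bp).

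The 6 such windows on X had fewer peak bases. Window 13, chrX:135868222-135868721 on the plus strand, had 160 and 116 at day 3 and 136 and 187 at day 0, in a row at 38.6 FPKM at day 3 and 76.4 FPKM at day 0. Window 15, chrX:151772518-151773028 on the minus strand, had 160 and 122 at day 3 and 76 and 148 at day 0. It stood above its deeper sequence, with 313 and 239 peak bases per kb at day 3 and 149 and 290 at day 0, against 15.8, 1.99, 14.6 and 7.61 per kb. By unscaled peak bases the days overlapped in both windows. Scaled to list size they overlapped in window 13 but not in window 15. None of the 6 had a ChIP peak within 500 bp in any library, and limma differences ran from -0.31 to 0.55 (log2; adjusted p from 0.951 to 1.00).

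X held more of the start peaks than of the deeper peaks, a comparison made after values were seen. The share on X was 7.46% and 5.98% of start peaks at day 3 and 7.26% and 7.37% at day 0, against 4.78%, 4.69%, 5.05% and 5.01% of deeper peaks. The mean difference was 2.13 ± 0.60 percentage points (SD, n = 4; higher in 4 of 4 libraries, two-sided exact sign-flip permutation p = 0.13). X held 4.02% of rows at day 3 and 3.97% at day 0, and 6.57% and 5.69% of host rows at day 3 and 6.64% and 6.60% at day 0. In rows of 1 transcript the difference was 0.373 points, and against the deeper peaks of host rows alone the share on X was lower for start peaks in all 4 libraries (7.46% against 7.70% in day 3 replicate 1, 7.26% against 11.4% in day 0 replicate 1).

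Windows with start peaks at both libraries of 1 day and none of the other often differed widely between those 2 libraries. At day 3, window 19, chr8:5639584-5640083 on the plus strand, had 24 and 209 peak bases, although both days listed its row, at 48.6 FPKM at day 3 and 37.2 FPKM at day 0. Window 22, chr9:110700390-110701169 on the plus strand, had 46 and 156 at day 3, and window 23, chr15:10642867-10643366 on the minus strand, had 60 and 135. At day 3 a longer row covered window 23, so the row start there was that of day 0. The libraries were closer in window 20, chr2:165646399-165646898 on the plus strand, with 124 and 90 peak bases at day 3. At day 0 a longer row covered it, and ChIP peaks of all 3 libraries lay within 500 bp of its start. Window 21, chr8:34910401-34910900 on the minus strand, had 104 and 100 at day 3. Window 24, chrX:162608386-162608885 on the plus strand, had 100 and 82 at day 3 and began a row of 2.28 FPKM that day 0 did not list. All 6 were listed at 0 in both day 0 libraries.

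The 6 windows of day 0 were listed at 0 in both day 3 libraries. Window 25, chr4:145036512-145037011 on the plus strand, had 54 and 261 peak bases at day 0, window 29, chr11:69571640-69572236 on the minus strand, had 204 and 54, and window 30, on chromosome 18, had 177 and 72. The libraries were closer in window 26, chr2:165635551-165636050 on the plus strand, which lay upstream of window 20 and had 159 and 155 at day 0, and day 3 listed no row there. Window 27, chr8:20019794-20020439 on the minus strand, had 140 and 147 at day 0. Window 28, chr3:116607527-116608026 on the plus strand, had 160 and 100 at day 0, and ChIP peaks of all 3 libraries lay within 500 bp. All 12 windows were chosen for their difference, and none passed limma, with adjusted p from 0.218 to 0.358 for the 6 of day 3 and from 0.218 to 0.328 for the 6 of day 0. A row start was listed at both days for 2 of the 6 windows of day 3 and 3 of the 6 windows of day 0.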

How the data were processed

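Of 16 samples, 9 had files used here. Build mm9 was named, without roles for the tools, per the submitters' processing notes, together with Cufflinks 2.1.1, bedtools 2.17.0, TopHat2 2.0.8, SAMtools 0.1.18, cutadapt 1.0, Novoalign 3.00.03 and Trim Galore 0.3.3. Which program called peaks is not given in the sources. Deposited peak lists, 1 per library, hold the authors' own score, used for ranks within a list. The RNA-seq value deposited by the authors was taken as FPKM, since Cufflinks reports it; the files do not name it. Allelic lists were not used.

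Chromosomes 1 to 19 and X were used. Shares were compared over the 4 CLIP libraries by exact sign-flip permutation. Days were compared by limma 3.58.1 (R 4.3.3) on log2 of peak bases per Mb of peak bases plus a pseudocount of 1, which understates changes of low windows, over all start windows and row remainders that had peaks in 2 or more libraries (Benjamini-Hochberg adjustment, threshold 0.05). No label says replicates were separate cultures, so p-values may measure technical spread. Steps were tested on simulated data. Other tools were SciPy 1.17.1, NumPy 2.4.6, matplotlib 3.10.9, pandas 2.3.3 and Python 3.11.15.

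Members and lists were chosen with earlier results of these data known. Named windows were the 12 with most peak bases (mean of libraries) among those with start peaks in all 4 libraries, the 6 such on X, and the 6 per direction found in each library of 1 day and in none of the other day; some of each are printed. Alternatives covered window, row and overlap rules, FPKM, length, ChIP list, scaling, a replicate block and each library left out.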

Additional observations from a re-analysis of the deposited data

How the results depend on the processing

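The ChIP difference at starts was negative with a start window of 250 bp (-0.689 points) or 1000 bp (-0.342), rows of at least 1 FPKM (-0.0852), deeper peaks from 2000 bp on (-0.00360), classes of row length (-0.312), ChIP within 250 bp (-0.0946), ChIP of day 0 replicate 1 (-1.08) or in both day 0 replicates (-1.004), the 4 classes of FPKM (-0.418), and without day 0 replicate 2 (-0.682). The repeat difference was -1.68 points against deeper peaks of host rows. The cause of these turns was not tested. The share of in-row peaks near starts was 0.701% with 250 bp, 3.03% with 1000 bp, 1.15% with rows of at least 2000 bp, 9.19% with rows of 1 transcript, 1.503% with deeper peaks from 2000 bp on, 1.26% without rows that began within 1000 bp past another, and 1.32% without rows of over 3 start peaks; windows and rows of other sizes hold other numbers of peaks by construction. The alternatives on host rows, equal weight, gaps and crowded rows, and on repeat by length or FPKM, and the comparison on X with all its settings, were added after seeing the data.

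For repeat, leaving out a library also removes the value of its partner, so 7.46 points (day 3 libraries alone) and 9.71 points (day 0 libraries alone) are values per day and no check of single libraries. Leaving out each library gave 0.48 to 0.55 (log2) for FPKM, -0.682 to 0.877 points for ChIP, 1.41% to 1.44% for the start share, and 1.95 to 2.42 points for X. The day comparison called 0 features under all 10 alternatives, the replicate block included, with unadjusted p under 0.05 in 452 to 1443 features. With that block 1022 features had an unadjusted p under 0.05. Same-numbered libraries deviated together with a correlation of 0.0229 over 12382 features, which gives no sign of pairing by number in these features. Whether same-numbered libraries shared a preparation was not tested.

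Read depth is unknown, so a window listed at 0 is not shown to be empty. With 4 libraries no sign-flip p can go below 0.13 (rounded), and an exact relabelling of 2 libraries against 2 cannot go below 0.33. Row starts come from assembly, not from mapped caps.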

Other observations

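Peaks around the same starts on other strands and sides were fewer than start peaks. On the sense strand, the 500 bp upstream of row starts had 329 and 424 at day 3 and 473 and 899 at day 0. On the antisense strand, the first 500 bp had 109 and 259 at day 3 and 129 and 274 at day 0, and the next 500 bp had 77 and 154 at day 3 and 101 and 178 at day 0. Upstream, the antisense strand had 350 and 627 at day 3 and 429 and 730 at day 0, which was more than the antisense strand downstream in all 4 libraries. Rows on that strand were not left out of these counts.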
